A study of Mus musculus with 2 samples.

Results

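The genes for 8 checkpoint ligands, Cd274, Pdcd1lg2, Cd80, Cd86, Lgals9, Vsir, Nectin2 and Pvr, were followed in mouse pancreatic tumors by single-cell RNA sequencing. They were taken by symbol, as ligands of immune checkpoint receptors, and are 8 of the 32285 genes in the count tables. Their levels were compared across neutrophils, macrophages, monocytes, dendritic cells (DCs), B cells and epithelial cells and between 2 treatments. In both groups, K210 cells were implanted into the pancreas of male C57BL/6J mice, obtained at 5 to 6 weeks of age and kept for 7 days. Treatment began 7 days after implantation, by injection into the peritoneum every 3 days. K210 cells come from a tumor of a genetically engineered mouse with Pdx1-Cre, which acts in the pancreatic lineage, and Trp53 fl/fl. One group received PBS and the other cmExoaCD11b, exosomes loaded with cGAMP (5 µg per mouse), which activates STING, and with mRNA for IL-12, which bore antibodies against CD11b, a surface integrin of myeloid cells. Tumor-infiltrating cells were collected 48 h after treatment, and cells of 3 mice were pooled into 1 library per treatment. With 1 library in each group no test between the treatments was possible, so the intervals given below (95%) cover counting error only and say nothing of the spread between mice.

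Checkpoint ligands sit on antigen-presenting, tumor and other cells and are read by receptors on T cells and natural killer (NK) cells. PD-L1 (gene Cd274) and PD-L2 (Pdcd1lg2) bind the inhibitory receptor PD-1, whereas CD80 and CD86 bind the activating receptor CD28 and its inhibitory rival CTLA-4, and CD80 can also bind PD-L1 on the same cell. Galectin-9 (Lgals9) is a ligand of TIM-3, VISTA (Vsir) is an inhibitory B7-family protein of myeloid cells, and nectin-2 (Nectin2) and the poliovirus receptor (Pvr) are bound by activating DNAM-1 and inhibitory TIGIT. Interferons are well-known inducers of PD-L1, in part through IRF1.

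Of the promoters, 3 are shown because their genes carry the contrasts described below. The neighbors Cd274 and Pdcd1lg2 both had a lower share of UMIs in neutrophils with cmExoaCD11b. For Cd274 the difference was smaller and was not seen under every setting. Lgals9 was higher with cmExoaCD11b in most immune classes. The sequences are from RefSeq on GRCm38.p6 and run from 250 bases before the gene start to 50 bases after it, 5′ to 3′ on the strand of the gene. RefSeq promoters were matched for 6 of the 8 genes, all but Cd86 and Pvr. Capitals mark matches to the IRF element (GAAA, any 2 bases and GAAA, or in reverse TTTC, any 2 bases and TTTC), searched on both strands, or to the GAS element TTCNNNGAA, which reads the same on both strands. The sequences lie at chr19:29367188-29367487 on the plus strand, chr19:29410669-29410968 on the plus strand and chr11:78984875-78985174 on the minus strand.
Cd274: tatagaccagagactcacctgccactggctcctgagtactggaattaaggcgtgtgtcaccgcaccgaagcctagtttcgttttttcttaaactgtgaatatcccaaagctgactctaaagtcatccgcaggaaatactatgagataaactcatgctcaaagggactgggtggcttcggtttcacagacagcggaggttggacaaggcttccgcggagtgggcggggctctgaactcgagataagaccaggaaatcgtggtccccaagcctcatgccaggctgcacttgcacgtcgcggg
Pdcd1lg2: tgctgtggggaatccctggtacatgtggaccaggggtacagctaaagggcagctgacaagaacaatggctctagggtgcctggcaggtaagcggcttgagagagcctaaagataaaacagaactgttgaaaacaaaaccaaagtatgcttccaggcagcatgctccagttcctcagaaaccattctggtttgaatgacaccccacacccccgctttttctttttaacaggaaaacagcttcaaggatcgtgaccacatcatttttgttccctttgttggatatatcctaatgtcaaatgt
Lgals9: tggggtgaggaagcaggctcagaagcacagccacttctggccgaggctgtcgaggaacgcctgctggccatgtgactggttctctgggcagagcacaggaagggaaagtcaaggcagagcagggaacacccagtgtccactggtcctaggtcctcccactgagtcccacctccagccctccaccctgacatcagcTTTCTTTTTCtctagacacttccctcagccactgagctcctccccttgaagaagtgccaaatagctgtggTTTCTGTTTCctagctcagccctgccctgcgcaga
Lgals9 held 2 IRF elements, at -55 to -46 and 15 to 24 with the gene start as 0, both on the strand opposite to the gene. Neither motif, in these exact spellings, was present in the windows of Cd274, Pdcd1lg2, Cd80, Vsir and Nectin2. Elements with other spacing or outside the windows were not searched, so this does not show that a gene lacks an IRF site. Of all 32851 RefSeq promoters of this length, 3.44% held an IRF element and 8.30% a GAS element. No match overlapped a match to the other motif, and the letters describe the window without showing that a factor bound there.

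The counted unit was the unique molecular identifier (UMI), 1 per captured RNA molecule. After cell calling, filters and removal of doublets, 6835 cells with 50650189 UMIs were kept in the PBS library and 7073 cells with 62244808 UMIs in the cmExoaCD11b library, with medians of 3471 and 4098 UMIs per cell. The libraries shared 16 cell barcodes among these cells. A cell was put in a class when it had UMIs of at least 3 of the 10 markers of that class and of fewer markers of each of the 10 other classes, with ties between DCs and macrophages or monocytes given to DCs. This gave 4604 and 4325 neutrophils (PBS and cmExoaCD11b), 396 and 84 macrophages, 208 and 320 monocytes, 38 and 61 DCs, 285 and 293 B cells, and 46 and 29 epithelial cells. T or NK cells, kept as a reference, numbered 472 and 1123. All 10 markers of each of the 6 classes were detected in it, and its cells had UMIs of 4.29 to 7.56 of them on average. Neutrophil markers were also found in other classes, with 3.25 and 3.01 of 10 per macrophage, 3 and 3.51 per monocyte, 2.11 and 2.31 per DC and 1.61 and 1.70 per B cell. Free RNA, bounded from above by the foreign markers of each class and the profile of empty droplets, was at most 4.87% and 5.86% of neutrophil UMIs, 11.9% and 13.2% in macrophages, 8.97% and 8.51% in monocytes and less than in neutrophils in DCs, B cells and epithelial cells.

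Cd274 was present in every immune class and nearly missing from epithelial cells. Levels are given as CPM, the UMIs of a gene for every 1000000 UMIs of all cells in the class. CPM is thus a share of the counted RNA, and classes differed in depth. The median cell held 3408 and 3751 UMIs in B cells and 10718 and 12379 in DCs. Counted as Cd274 UMIs per cell, DCs and macrophages stood above B cells in both libraries. B cells had the highest Cd274 level in both libraries, at 549.9 CPM (514 to 587) with PBS and at 611 CPM (571 to 653) with cmExoaCD11b. DCs followed in PBS with 427 CPM (370.4 to 491), then neutrophils with 319 CPM (313 to 325), macrophages with 267 CPM (254 to 281) and monocytes with 210.3 CPM (191 to 231), and each neighbor in this order differed beyond counting error. In cmExoaCD11b the order was B cells, macrophages (448 CPM, 404 to 496), DCs (295 CPM, 258 to 335), neutrophils (233 CPM, 229 to 238) and monocytes (210.1 CPM, 195 to 226), again with each step beyond counting error. Macrophages thus stood below DCs and neutrophils in PBS and above both in cmExoaCD11b. The place of DCs above neutrophils leaned on single cells with a large part of the DC UMIs of Cd274, given below, which counting error does not cover. T or NK cells, which are outside this order, had 376 CPM with PBS and 527 CPM with cmExoaCD11b. That was above neutrophils, macrophages and monocytes in PBS, and above every class but B cells in cmExoaCD11b. They held 6.28% and 16.0% of the Cd274 UMIs of all kept cells. Epithelial cells held 19 Cd274 UMIs in PBS and 5 in cmExoaCD11b, or 15.2 CPM (9.13 to 23.7) and 7.58 CPM (2.46 to 17.7), of which free RNA could account for at most 4.002 and 3.04 CPM. Neutrophils, the most numerous class, held 64.2% of the Cd274 UMIs of all kept cells in PBS and 57.1% in cmExoaCD11b.

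**Figure D1:**
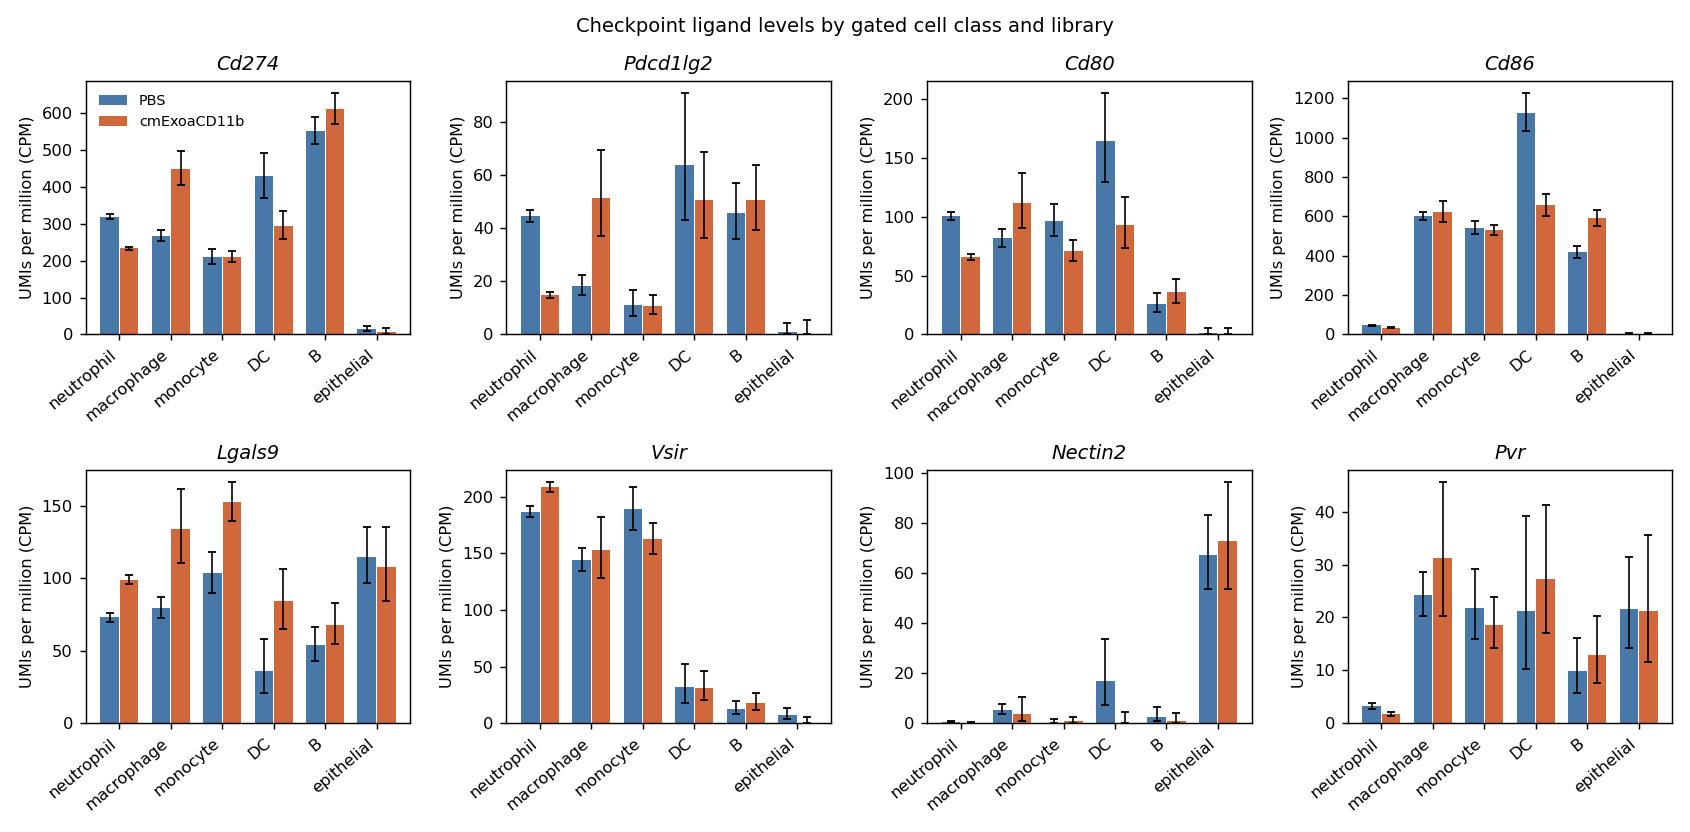
Level of the 8 checkpoint ligand genes in CPM (linear axes from 0) in 6 gated cell classes, PBS in blue and cmExoaCD11b in orange, 1 library each; error bars are exact 95% Poisson intervals. Cd274 is highest in B cells (549.9 and 611 CPM), Cd86 in PBS DCs (1127 CPM) and Nectin2 in epithelial cells (67.1 and 72.8 CPM).

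The share of cells with a Cd274 UMI, after every cell was thinned to 1000 UMIs, was again highest in B cells and lowest in epithelial cells, but DCs did not stand above neutrophils and macrophages by it. It was 43.0% (36.9 to 49.2%) and 35.3% (29.6 to 41.2%) in B cells, 30.7% (29.4 to 32.1%) and 25.3% (24.0 to 26.6%) in neutrophils, and 24.4% (20.2 to 29.0%) and 32.9% (22.7 to 44.4%) in macrophages. In cmExoaCD11b the macrophage interval spans that of B cells, so these classes were not set apart beyond counting error there. Monocytes had 19.6% and 21.7%, DCs 23.7% and 21.3%, and T or NK cells 23.0% and 26.5%. Epithelial cells, the class with least Cd274, had 7.14% (1.498 to 19.5%) in PBS and 0 of 29 cells in cmExoaCD11b, where the interval reached 11.9%. Without thinning, the shares were 51.7% and 48.8% in neutrophils, 64.4% and 64.3% in macrophages, 67.4% and 66.2% in B cells and 21.7% and 13.8% in epithelial cells, whose median cell held 22586 and 20132 UMIs against 3456 and 4636 in neutrophils. The lower share in epithelial cells was therefore seen at a greater depth.

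Between the treatments, Cd274 was lower in neutrophils and DCs of the cmExoaCD11b library, higher in macrophages and nearly level in monocytes. The ratio of cmExoaCD11b to PBS was 0.730 (0.710 to 0.751) in neutrophils, 0.690 (0.569 to 0.836) in DCs and 1.68 (1.49 to 1.88) in macrophages. Monocytes gave 0.999 (0.885 to 1.13) and B cells 1.11 (1.01 to 1.22), while in T or NK cells the ratio was 1.40 (1.30 to 1.51). In B cells the direction was not stable, since thinning to 1000 UMIs gave 0.905. One cell held 20.9% of the DC UMIs of Cd274 in PBS and 21.8% in cmExoaCD11b. The macrophage value rests on 84 cells in cmExoaCD11b, in which 1 cell held 10.7% of the Cd274 UMIs. Among the cells with at most 1 marker of any other class, the directions turned, to 0.236 in macrophages (28 and 7 cells) and 7.55 in DCs (4 and 3 cells). In neutrophils, the ratio was 1.02 when only cells above the ranked-UMI cut-off were kept and 1.08 among cells with at most 1 marker of any other class, so the lower level was not seen under those settings.

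Pdcd1lg2, the other PD-1 ligand, differed most of all members in neutrophils. It stood at 44.6 CPM (42.3 to 46.9, 1443 UMIs) in PBS and 14.9 CPM (13.8 to 16.2, 628 UMIs) in cmExoaCD11b, a ratio of 0.335 (0.305 to 0.368). Thinned to 1000 UMIs, 7.78% (7.01 to 8.61%) and 2.999% (2.50 to 3.56%) of neutrophils had a UMI, and without thinning 18.8% and 10.1%. No cell held more than 0.955% of the UMIs, and all 13 alternative settings gave a ratio below 1, from 0.316 to 0.548. T or NK cells had 4.13% and 5.41% after thinning, at medians of 4466 and 3734 UMIs per cell before it, so the neutrophil share lay above that reference in PBS and below it in cmExoaCD11b. By CPM, T or NK cells had 49.8 and 54.3, so the neutrophil level lay below that reference in both libraries. Levels in the other immune classes were 63.8 and 50.8 CPM in DCs (ratio 0.796, 0.485 to 1.32), 45.7 and 50.6 CPM in B cells (1.11, 0.789 to 1.56) and 11.1 and 10.8 CPM in monocytes (0.974, 0.562 to 1.72), each with an interval that includes 1. Macrophages held 18.4 CPM (15.0 to 22.3) with PBS and 51.5 CPM (37.3 to 69.4) with cmExoaCD11b, a ratio of 2.80 (1.91 to 4.04). That higher level was carried by 1 cell, which held 53.5% of the 43 UMIs. Without the top cell of each library the ratio was 1.59, and with every cell given equal weight the ratio was 0.749. Epithelial cells held 1 UMI in PBS and 0 in cmExoaCD11b.

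In the CD28 and CTLA-4 ligands, the clearest difference was the lower Cd86 of DCs. DCs held 1127 CPM of Cd86 (1033 to 1227) with PBS and 658 CPM (603 to 716) with cmExoaCD11b, a ratio of 0.583 (0.516 to 0.659). In the 4 and 3 DCs with at most 1 marker of any other class it was 2.36. Macrophages and monocytes, the next Cd86-rich classes in PBS, were level, with 601 and 625 CPM (ratio 1.04, 0.945 to 1.14) and 543 and 530.0 CPM (0.975, 0.904 to 1.05). B cells had 419 and 593 CPM, a ratio of 1.41 (1.28 to 1.57), which was 1.08 after thinning. In cmExoaCD11b the steps from DCs to macrophages and from macrophages to B cells were within counting error, and that from B cells to monocytes was not (1.12 times). The thinned shares with a Cd86 UMI were 50% and 42.6% in DCs, 35.8% and 39.2% in macrophages, 40.7% and 39.5% in monocytes and 35.0% and 33.1% in B cells, against 6.52% and 5.05% in T or NK cells. Neutrophils had only 3.87% and 3.48%, below that reference. The part of free RNA and doublets in so low a share was not tested, so no difference is read from their 47.7 and 35.4 CPM (ratio 0.741). Within neutrophils, the ISG-rich cells described below had 2.14 times (1.52 to 2.96) and 2.52 times (1.83 to 3.47) the Cd86 of those with no ISG UMI. Those cells held only 51 and 98 Cd86 UMIs after thinning, and the part of free RNA and doublets in this was not tested.

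Cd80, the partner of Cd86, was lower in cmExoaCD11b in 3 of the 4 myeloid classes. Its levels were 100.2 and 65.9 CPM in neutrophils (ratio 0.658, 0.625 to 0.692), 96.2 and 70.7 CPM in monocytes (0.735, 0.606 to 0.892; 1.26 among the 16 and 25 with at most 1 marker of any other class) and 164 and 92.9 CPM in DCs (0.567, 0.407 to 0.790). One DC held 29.9% of the Cd80 UMIs in PBS and another 46.7% in cmExoaCD11b. Macrophages had 81.5 and 111 CPM (1.37, 1.08 to 1.71), but the ratio was 0.509 after thinning, so no direction is given for them. In B cells, with 25.9 and 35.6 CPM, the interval of the ratio included 1 (0.894 to 2.12), and epithelial cells held 2 UMIs and 0. Thinned shares were 14.4% and 9.77% in neutrophils, against 4.13% and 3.30% in T or NK cells.

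Lgals9 was the only member higher in cmExoaCD11b in all 4 myeloid classes with intervals above 1. It went from 73.2 to 99.01 CPM in neutrophils (ratio 1.35, 1.29 to 1.42), from 79.7 to 134 CPM in macrophages (1.68, 1.36 to 2.08), from 103 to 153 CPM in monocytes (1.48, 1.26 to 1.74) and from 36.2 to 84.2 CPM in DCs (2.33, 1.35 to 4.23). The alternatives that gave a value stayed above 1 in each of these classes. B cells had 53.7 and 67.7 CPM (1.26, 0.933 to 1.71), and T or NK cells 87.0 and 120 CPM (1.38, 1.18 to 1.61). Epithelial cells, with the highest level in PBS, had 115 and 108 CPM, a ratio of 0.936 (0.694 to 1.25). The DC value rests on 17 and 68 UMIs. After thinning, the share of neutrophils with a UMI was 9.33% (8.49 to 10.2%) and 9.79% (8.90 to 10.7%), close to the 7.61% and 9.36% of T or NK cells, and the ratio of neutrophil levels was 1.05.

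Vsir was highest in neutrophils, monocytes and macrophages in both libraries. Neutrophils had 187 and 209 CPM (ratio 1.12, 1.08 to 1.15), monocytes 189 and 163 CPM (0.860, 0.753 to 0.982) and macrophages 144 and 153 CPM (1.06, 0.875 to 1.28). The neutrophil ratio was 0.687 among cells with at most 1 marker of any other class, so no direction is given for it. T or NK cells held 83.3 and 80.8 CPM, DCs 31.9 and 31.0 CPM and B cells 12.96 and 17.8 CPM. Up to 7.42 and 6.05 CPM of the B-cell level could be free RNA. Epithelial cells had 9 UMIs in PBS and 0 in cmExoaCD11b.

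Nectin2 was the member of the epithelial cells. They held 84 UMIs (67.1 CPM, 53.5 to 83.0) in PBS and 48 UMIs (72.8 CPM, 53.7 to 96.5) in cmExoaCD11b, a ratio of 1.09 (0.745 to 1.57). With 0.673% and 0.410% of the kept cells, they had 49.1% and 50.5% of all Nectin2 UMIs. The immune classes were far lower, with 0.525 and 0.262 CPM in neutrophils, 5.41 and 3.60 CPM in macrophages and at most 4 UMIs per library in monocytes and B cells. In DCs there were 8 UMIs in PBS and 0 in cmExoaCD11b, where 3 counts would be 3.72 CPM. Pvr was low in every class, at 24.2 and 31.2 CPM in macrophages, 21.8 and 18.7 in monocytes, 21.3 and 27.2 in DCs, 21.6 and 21.2 in epithelial cells and 9.88 and 12.8 in B cells, each with a ratio whose interval includes 1. In neutrophils it was lower still, with 3.21 CPM in PBS and 1.64 CPM in cmExoaCD11b (ratio 0.511, 0.371 to 0.699). Those levels are very low and lie below the 18.6 and 16.9 CPM of T or NK cells. That reference is not a floor, since neutrophil Cd274, Pdcd1lg2 and Lgals9 also lay below it by CPM. The part of free RNA and doublets in the neutrophil Pvr was not tested, so no difference is read from it.

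**Figure D2:**
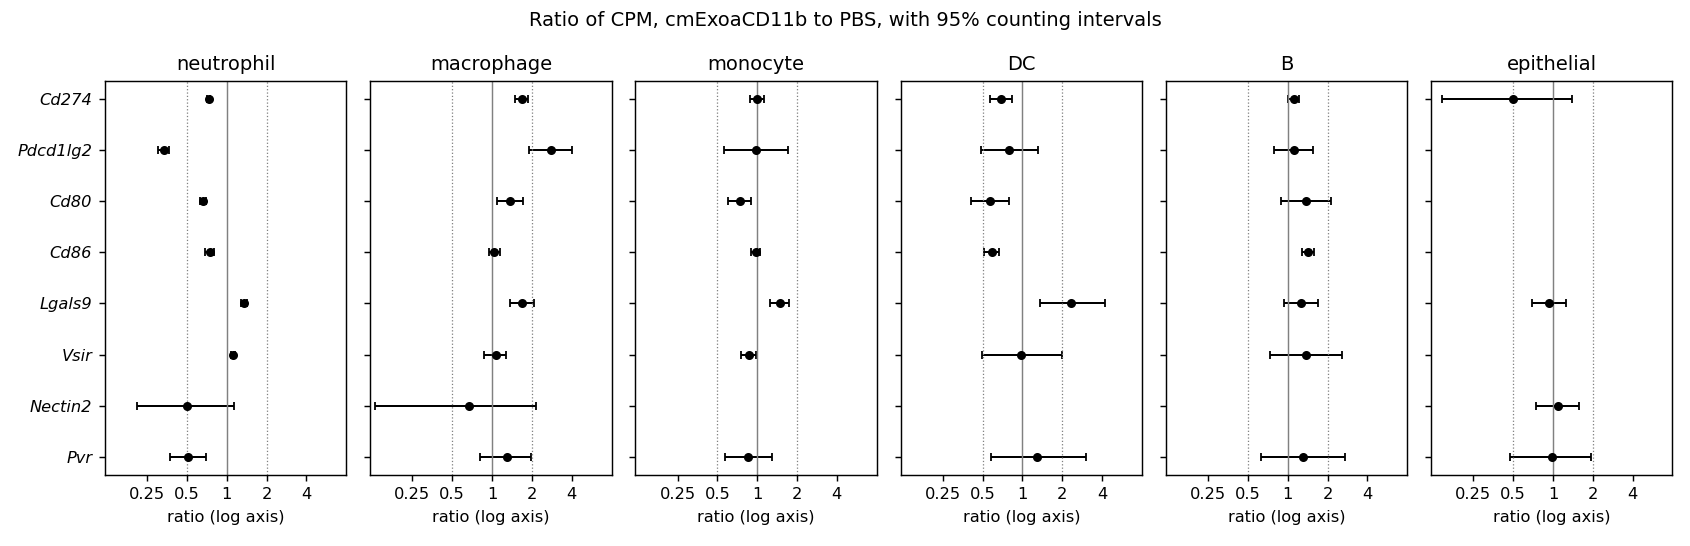
Ratio of CPM in cmExoaCD11b to PBS (log axis) for each checkpoint ligand gene in 6 cell classes; points are ratios of 1 library to 1 library, bars are exact 95% counting intervals, the solid line is 1 and the dotted lines are 0.5 and 2. Genes with under 20 UMIs in a class are left out; Pdcd1lg2 lies at 0.335 in neutrophils and Lgals9 above 1 in all 5 immune classes.

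Set against all genes, few members passed a ratio of 2 in either direction. A gene was called when it had at least 20 UMIs over both libraries and a ratio of at least 2 or at most 0.5. In neutrophils 2 of 8 members were called lower, Pdcd1lg2 and Nectin2 (0.498, 0.211 to 1.13), and none higher, where 6.51% of all 13618 genes were lower and 3.93% higher. In macrophages 1 of 8 was called higher, Pdcd1lg2, and none lower, against 5.38% and 8.52% of all genes. In DCs 1 of 7 was called higher, Lgals9, and none lower, against 7.66% and 4.95%. Of the 4 members tested in epithelial cells, Cd274 was called lower with an interval of 0.146 to 1.38, against 7.34% of genes lower and 2.91% higher. No member was called in monocytes (7 tested; 6.66% of genes higher and 2.39% lower) or in B cells (7 tested; 2.76% and 4.35%). The median ratio of the tested members was 0.694 in neutrophils, where that of all genes was 1.06, 1.33 in macrophages (0.997), 0.974 in monocytes (1.07), 0.796 in DCs (1.05), 1.30 in B cells (1.04) and 0.960 in epithelial cells (0.944). By the counting interval alone, 5 of 8 members lay below 1 in neutrophils and 2 above, where this held for 21.6% and 34.2% of all genes. In macrophages 4 lay above 1 and none below, against 13.4% and 10.5% of all genes, and in monocytes 1 above and 2 below, against 18.5% and 9.67%. DCs had 1 above and 3 below, against 12.3% and 9.32%, and B cells 2 above and none below, against 16.2% and 11.0%. These counts include ratios that lay on the other side of 1 under another setting. In macrophages they were Cd80 (0.509 after thinning), Pdcd1lg2 (0.749 as a mean of per-cell CPM) and Cd274 (0.236 with at most 1 foreign marker). Under that marker limit, neutrophils had 0.687 for Vsir and 1.08 for Cd274, and monocytes had 1.26 for Cd80. DCs then had 7.55 for Cd274 and 2.36 for Cd86. Cd274 in B cells was 0.905 after thinning. Cd86 in neutrophils kept its side of 1 in 12 of 13 alternatives. The neutrophil count below 1 also includes Cd86 and Pvr, from which no difference is read. No interval excluded 1 in epithelial cells, where 6.72% of all genes lay above and 10.7% below.

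Neutrophils were then divided by maturity, since their make-up differed between the libraries. Cells with UMIs of at least 2 of Camp, Ngp and Ltf, which encode proteins of granules made early in neutrophil development, were called immature. After thinning to 1000 UMIs, they made up 43.5% of 4446 neutrophils in PBS and 60.7% of 4168 in cmExoaCD11b. Cd274 was higher in the other neutrophils than in the immature ones, 1.94 times (1.79 to 2.11) in PBS and 2.22 times (2.05 to 2.42) in cmExoaCD11b. Within the other neutrophils Cd274 was level between the libraries, at 811 and 824 CPM (ratio 1.02, 0.949 to 1.09), and within the immature ones it was 418 and 371 CPM (0.886, 0.805 to 0.975). These levels are above the 319 and 233 CPM given for all neutrophils because thinning gives each cell the same weight, and cells with few UMIs had more Cd274 per UMI. With all UMIs counted and the immature cells left out, the ratio was 0.886. The share of immature cells thus moved with the lower Cd274 of neutrophils, and its part in it was not tested beyond these values.

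Pdcd1lg2 was lower in cmExoaCD11b on either side of this division. It went from 61.6 to 23.7 CPM in immature neutrophils (ratio 0.385, 0.278 to 0.530) and from 117 to 51.9 CPM in the others (0.443, 0.344 to 0.566). Cd80 was likewise lower in both, at 137 and 89.4 CPM (0.652, 0.543 to 0.781) and at 226 and 181 CPM (0.801, 0.693 to 0.923). Vsir went opposite ways, from 178 to 207 CPM in immature neutrophils (1.17, 1.02 to 1.34) and from 177 to 142 CPM in the others (0.7997, 0.679 to 0.939). Lgals9 had 89.0 and 93.3 CPM in immature neutrophils and 120 and 139 CPM in the others, and both intervals of the ratio include 1. Cd274 and Pdcd1lg2 UMIs tended to be in the same neutrophils: Pdcd1lg2 was detected in 13.5% of the cells with a Cd274 UMI and 5.23% of those without in PBS, and in 6.65% and 1.77% in cmExoaCD11b.

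Cells were also grouped by their UMIs of 10 interferon-stimulated genes (ISGs: Cxcl10, Ifi44, Ifit1, Ifit2, Ifit3, Irf7, Isg15, Oasl1, Rsad2 and Usp18) among 1000. Neutrophils with at least 3 such UMIs made up 11.7% in PBS and 26.1% in cmExoaCD11b. Cd274 was graded along the 3 groups (0, 1 or 2, and at least 3 ISG UMIs) in both libraries, with 520.0, 716 and 1249 CPM in PBS and 392, 501 and 880 CPM in cmExoaCD11b. The cells richest in ISGs thus had 2.40 times (2.19 to 2.63) and 2.24 times (2.04 to 2.47) the Cd274 of those with none, yet at each step the cmExoaCD11b level was the lower one (ratios 0.755, 0.700 and 0.705). Lgals9 had the same gradient, 2.15 and 2.58 times, but within the groups it was not higher in cmExoaCD11b (0.775, 0.627 to 0.953; 1.04, 0.785 to 1.37; 0.930, 0.728 to 1.19). The share of ISG-rich neutrophils thus moved with the Lgals9 level of the class, and its part in it was not tested further. Pdcd1lg2 was lower in cmExoaCD11b at every step, with ratios of 0.449, 0.313 and 0.254, and Vsir ran against the gradient, at 0.785 times (0.607 to 1.00) and 0.579 times (0.472 to 0.706) from the lowest to the highest group.

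**Figure D3:**
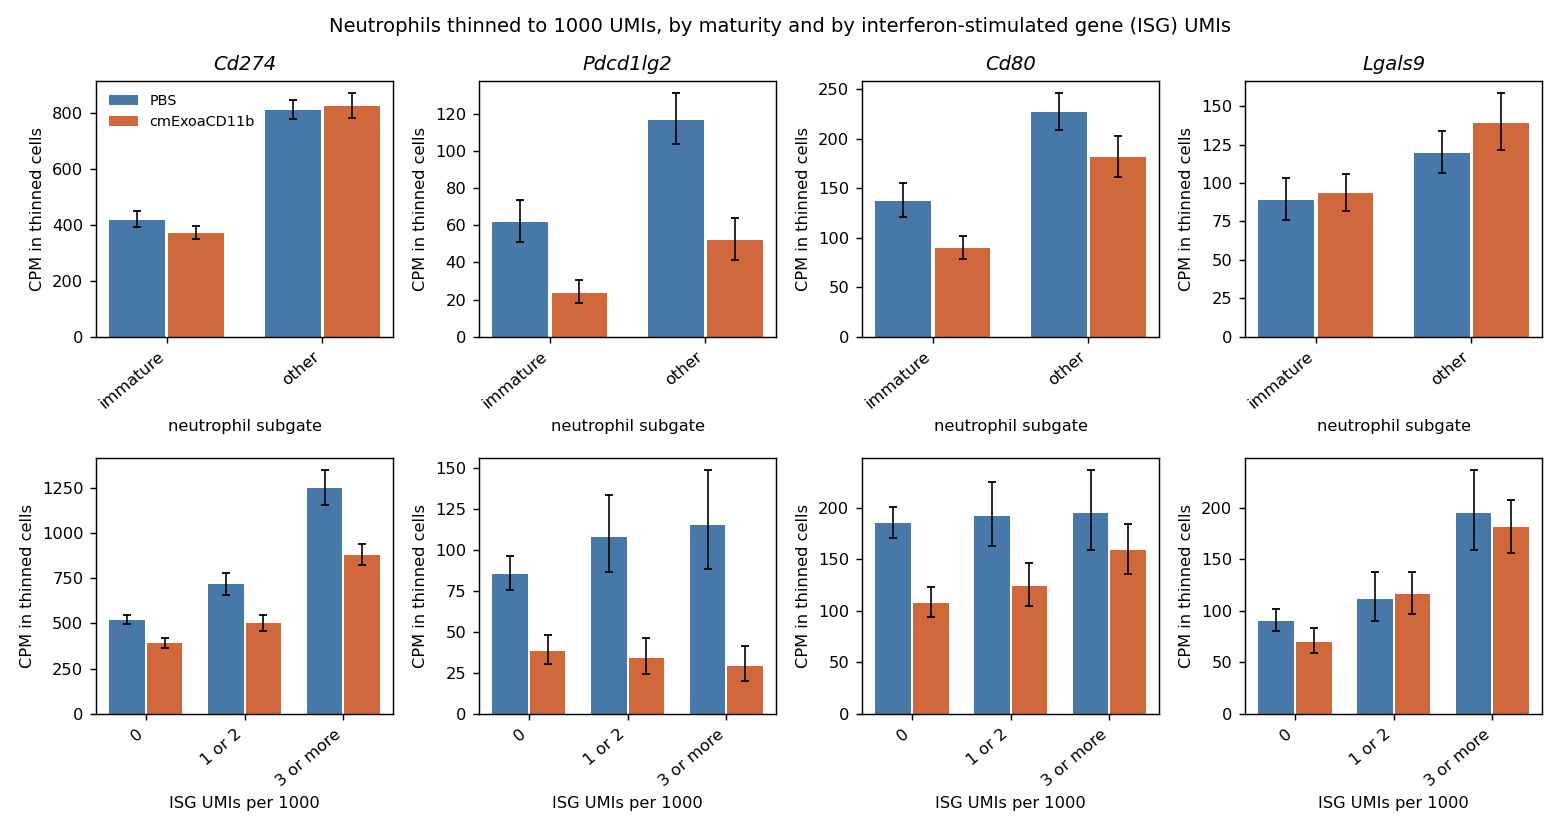
Levels of Cd274, Pdcd1lg2, Cd80 and Lgals9 in neutrophils thinned to 1000 UMIs (CPM, linear axes from 0), split into immature and other cells (top) and by UMIs of 10 ISGs (bottom), PBS in blue and cmExoaCD11b in orange; error bars are exact 95% Poisson intervals. Cd274 in the other neutrophils is 811 and 824 CPM, while Pdcd1lg2 is lower in cmExoaCD11b in all 5 subsets.

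In monocytes Cd274 was graded beyond counting error in the cmExoaCD11b library, and in macrophages in the PBS library. Monocytes with at least 3 ISG UMIs made up 12.6% in PBS and 44.0% in cmExoaCD11b. Cd274 stood at 338, 438 and 480.0 CPM along the groups in PBS and at 183, 232 and 596 CPM in cmExoaCD11b, a difference between the ends of 3.26 times (1.96 to 5.69) in cmExoaCD11b and 1.42 times (0.687 to 2.71) in PBS. So monocytes with no ISG UMI had less Cd274 in cmExoaCD11b (ratio 0.541, 0.300 to 0.937), while the class as a whole was level. In macrophages the ISG-rich share was 20.2% and 45.6%, and Cd274 was at 298, 349 and 462 CPM in PBS and 313, 407 and 667 CPM in cmExoaCD11b, a difference between the ends of 1.55 times (1.004 to 2.36) and 2.13 times (0.798 to 7.16). Within each macrophage group the interval of the treatment ratio included 1. Macrophages with and without a UMI of Arg1, an arginine-degrading enzyme of alternatively activated macrophages, had 319 and 368 CPM of Cd274 in PBS and 429 and 568 CPM in cmExoaCD11b, differences within counting error. Cd86 was 1.42 times (1.12 to 1.81) higher in PBS macrophages without an Arg1 UMI, with 618 and 879 CPM.

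DCs were divided into conventional type 1 cells, with a UMI of Xcr1 or Clec9a, mature cells, with UMIs of at least 2 of Ccr7, Fscn1 and Ccl22, which mark migratory DCs, and others. Type 1 cells numbered 14 of 38 DCs in PBS and 35 of 61 in cmExoaCD11b, mature cells 5 and 7, and others 19 and 19. With all UMIs counted, Cd274 was highest in the few mature cells, at 1765 CPM (53 UMIs) and 2173 CPM (110 UMIs), which is 11.3 times (6.97 to 18.7) and 16.1 times (11.7 to 22.2) the 156 and 135 CPM of type 1 cells. Between the libraries, Cd274 was at 452 and 231 CPM in the other DCs (ratio 0.511, 0.370 to 0.700), while the ratios of type 1 cells (0.864, 0.544 to 1.41) and mature cells (1.23, 0.879 to 1.74) have intervals that include 1. Differences between these ratios were not tested. In each library, as given above, a single cell held a large part of the DC UMIs of Cd274. Its subset was not determined, and the intervals of these subsets cover counting error only and do not account for it. Cd86 was lower in all 3, from 683 to 542 CPM in type 1 cells (0.794, 0.637 to 0.995), from 2198 to 1165 CPM in mature cells (0.530, 0.367 to 0.765) and from 1293 to 772 CPM in the others (0.597, 0.4998 to 0.711). Lgals9 was higher in cmExoaCD11b in type 1 cells, with 29.0 and 90.1 CPM (5 and 44 UMIs, ratio 3.11, 1.24 to 10.1). No Lgals9 UMI was found in the few mature cells, where the interval reached 123 CPM in PBS and 72.9 CPM in cmExoaCD11b. The share of type 1 cells, 36.8% and 57.4%, moved with the class values, and its part in them was not tested further. Thinned to 1000 UMIs, each subset held at most 30 UMIs of any member. Cd274 in mature cells was then 9.80 times (1.87 to 96.7) that of type 1 cells in PBS, from 7 and 2 UMIs. In cmExoaCD11b it was 6.67 times (2.58 to 17.9), from 12 and 9 UMIs.

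**Figure D4:**
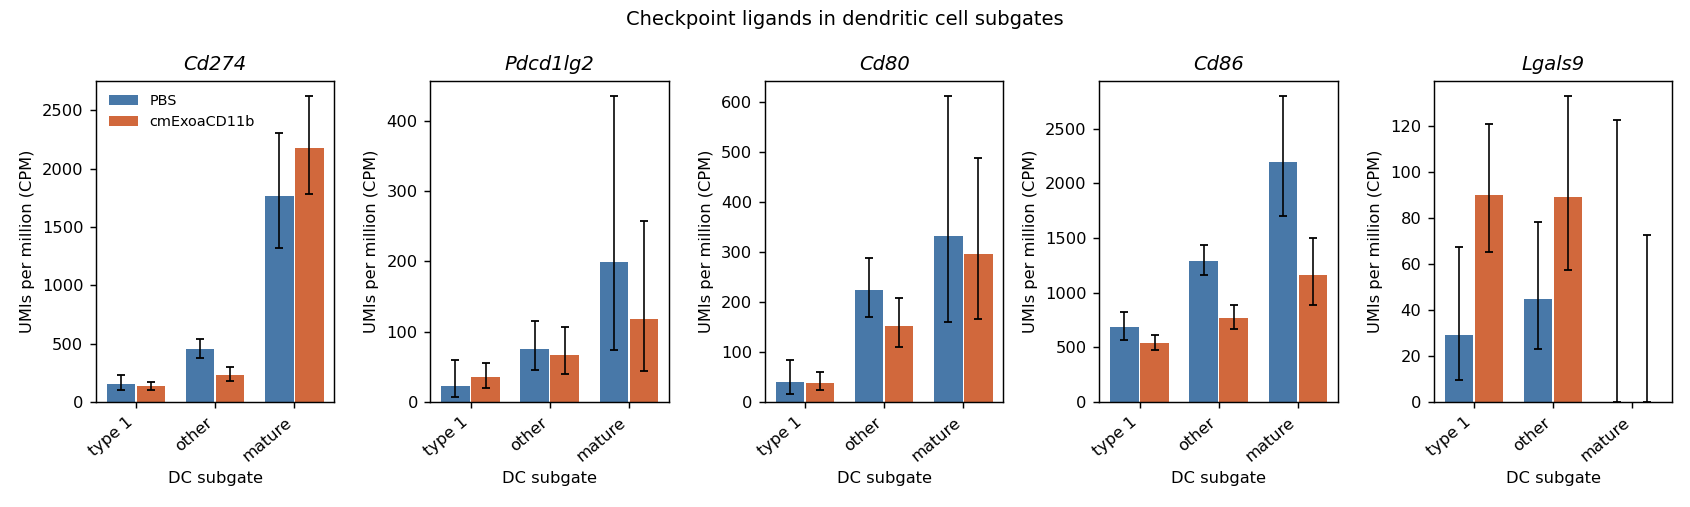
Levels of Cd274, Pdcd1lg2, Cd80, Cd86 and Lgals9 (CPM over all UMIs, linear axes from 0) in DCs gated as type 1 (14 and 35 cells), other (19 and 19) and mature (5 and 7), PBS in blue and cmExoaCD11b in orange; error bars are exact 95% Poisson intervals. Cd274 is highest in mature cells in both libraries, and Cd86 is lower in cmExoaCD11b in each subset.

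Receptors of these ligands were read in T or NK cells, along with Btla and Lag3, which are receptors of other ligands. None of the 9 receptor genes with enough UMIs passed a ratio of 2, where 3.73% of all genes were called higher and 3.41% lower. Pdcd1, the gene for PD-1, had 92.2 and 71.4 CPM (ratio 0.774, 0.657 to 0.913). The CD80 and CD86 receptors were higher in cmExoaCD11b, Cd28 with 291 and 389 CPM (1.34, 1.23 to 1.45) and Ctla4 with 157 and 190 CPM (1.21, 1.08 to 1.36). The receptors of nectin-2 and the poliovirus receptor were level or lower, with 189 and 177 CPM for Cd226, the gene for DNAM-1 (0.933, 0.836 to 1.04), 27.9 and 24.2 CPM for Tigit (0.869, 0.648 to 1.17) and 91.9 and 74.5 CPM for Cd96 (0.811, 0.689 to 0.955). Havcr2, the gene for TIM-3, had 35.3 and 29.4 CPM (0.833, 0.641 to 1.09), Btla 26.0 and 46.0 CPM (1.77, 1.35 to 2.34) and Lag3 19.3 and 26.2 CPM (1.35, 0.976 to 1.90), while Pvrig had only 9 and 10 UMIs. T or NK cells were 6.91% of the kept cells in PBS and 15.9% in cmExoaCD11b. Receptor genes were also called in other classes, 4 of 6 higher in neutrophils (3.93% of all genes), 3 of 5 higher in monocytes (6.66%), 2 of 8 higher and 2 lower in macrophages (5.38% and 8.52%), and 1 of 3 higher and 1 lower in DCs (7.66% and 4.95%). The levels in neutrophils and monocytes were no more than 31.0 CPM, for Btla in monocytes, and the part of free RNA and doublets in this was not tested.

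Of 9 genes known to govern Cd274, 7 had intervals above 1 and 2 below in neutrophils, where 34.2% of all genes lay above and 21.6% below. The counts above 1 were 7 of 9 in macrophages (13.4% of all genes), 6 of 9 in monocytes (18.5%) and 6 of 9 in T or NK cells (18.9%). DCs, B cells and epithelial cells, which held fewer UMIs over both libraries, had 2, 3 and 1 of 8 (12.3%, 16.2% and 6.72%). The median ratio of the list was 1.26 in neutrophils, 1.63 in macrophages, 1.27 in monocytes and 1.22 in B cells. Irf1, which binds the promoter of PD-L1, went from 79.3 to 265 CPM in monocytes (3.35, 2.83 to 3.98), in which Cd274 was level. Jak2, a kinase of the interferon-γ receptor encoded near Cd274, was lower in neutrophils (85.5 and 61.8 CPM, ratio 0.722, 0.684 to 0.762) and DCs (757 and 456 CPM, ratio 0.602, 0.519 to 0.698). Jak2 was higher in macrophages (1.63, 1.32 to 1.99) and monocytes (1.56, 1.34 to 1.83). The part of Irf1 or Jak2 in the Cd274 levels was not tested. Ifng in T or NK cells had 400 and 511 CPM (1.28, 1.19 to 1.37), and Cmtm6, which stabilizes PD-L1, had ratios of 0.916 to 1.49 in the 6 classes. Of this list, 1 of 9 was called higher in neutrophils (3.93% of all genes), 2 of 9 in macrophages (5.38%) and 3 of 9 in monocytes (6.66%). DCs, B cells and epithelial cells each had 1 of 8 called higher (7.66%, 2.76% and 2.91%). None was called lower in these classes, where 2.39% to 8.52% of all genes were. A count of 1 in so short a list is not read as a difference from all genes. The 10 ISGs were called higher far more often, against the same shares of genes called higher. That list, like the others, was chosen with earlier results of these data known, so its counts are descriptive only. The counts were 8 of 10 in neutrophils, 10 of 10 in macrophages and 9 of 10 in monocytes. In DCs it was 6 of 10, in B cells 5 of 9 and in epithelial cells 5 of 7.

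A further list held 15 genes, mostly ligands of immune receptors but also Cd40, which encodes a receptor. Of the 10 tested in neutrophils, 3 were called lower and none higher, where 6.51% of all genes were lower and 3.93% higher. By the interval, 6 of the 10 lay below 1 and 3 above, against 21.6% and 34.2% of all genes. The 3 called lower were Tnfsf9, Cd200 and Cd276. Tnfsf9, the 4-1BB ligand, had 24.2 and 7.28 CPM (ratio 0.301, 0.263 to 0.344). Cd200, an inhibitory ligand for myeloid cells, had 4.23 and 0.618 CPM (0.146, 0.0922 to 0.223). Cd276, the gene for B7-H3, had 0.988 and 0.309 CPM (0.313, 0.151 to 0.613). At levels as low as those of Cd200 and Cd276, the part of free RNA was not tested. In monocytes 2 of 8 were called higher, Cd40 and Tnfsf4, and none lower, against 6.66% and 2.39% of all genes. Cd40, the receptor through which T cells activate myeloid cells, had 6.28 and 30.7 CPM (4.88, 2.73 to 9.49). Tnfsf4, the OX40 ligand, had 0 and 21 UMIs, at least 4.36-fold higher against a floor of 3 counts over the class. Macrophages had 1 of 9 higher, Cd40 (2.20, 1.55 to 3.07), and 2 lower, Cd200 and Cd276, against 5.38% and 8.52% of all genes. DCs, B cells and epithelial cells each had 1 called lower, of 7, 6 and 6 tested, against 4.95%, 4.35% and 7.34% of all genes. None was called higher in these, where 7.66%, 2.76% and 2.91% of all genes were. T or NK cells had 1 of 8 higher and 3 lower, against 3.73% and 3.41%. A count of 1 in so few genes is not read as a difference from all genes. Cd47, whose protein restrains phagocytes, was higher in all 5 immune classes, with ratios of 1.15 to 1.46.

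The genes most like Cd274 across the 12 values (6 classes in 2 libraries) were Rassf2 (Pearson r 0.979), Dennd4a (0.979), Ddx3y (0.976), Dock2 (0.972) and Eif2s3y (0.971), out of 6086 genes with at least 50 CPM in at least 1 value, on a scale of log2(CPM + 10). For Cd86 they were Gpr132 (0.980), Jarid2 (0.978) and Cd48 (0.976). These values share libraries and cells, and each of the 8 genes was at its lowest in epithelial cells, as were Cd274 and Cd86. Dock2, for example, ranged from 4.55 to 808 CPM and Eif2s3y, a gene of the Y chromosome, from 0 to 121 CPM.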

How the data were processed

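Single cells from the tumors were sequenced with 10x Genomics 3′ chemistry, in 1 library per treatment. The authors deposited unfiltered tables of UMI counts, and their headers name Cell Ranger 7.1.0, whereas the study's methods name an earlier version. The genome build and the treatment of intronic reads, whose default differs between versions of that tool, are not given in the sources used here. All per-sample columns were used.

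Barcodes were called as cells above a ranked-UMI cut-off (99th percentile of the top 3000, divided by 10) or, from 500 UMIs, by a test against the profile of barcodes with at most 100 UMIs (10000 simulations, FDR 0.01). Cells under 200 genes or over 20% mitochondrial UMIs were dropped. The automatic doublet threshold of Scrublet (scanpy 1.11.5, 30 components) marked 0 cells, so the top-scoring 0.8% per 1000 cells were removed, 421 and 453 cells. Cells were gated by markers, and UMIs were summed per class and library and divided by all UMIs of the class. Intervals were exact (Poisson for levels, Clopper-Pearson for shares, conditional binomial for ratios; 95%) and the interval code was tested on simulated data. They cover counting error only. Python 3.11.15, numpy 2.4.6, scipy 1.17.1, pandas 2.3.3 and matplotlib 3.10.9 were used.

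The genes named are the 8 ligands, fixed lists of receptors, other ligands (with the receptor gene Cd40), regulators of Cd274 and ISGs, and the genes most correlated with Cd274 (5) and Cd86 (3). Members and lists were chosen with earlier results of these data known. The DC subsets with all UMIs, the neutrophils without immature cells and the values without the top cell were added after seeing the data. One allele of the tumor cells and 1 gene of the regulator list are not reported here by name.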

Additional observations from a re-analysis of the deposited data

Results flagged for a closer look

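In 5 of the ligands the ratio of cmExoaCD11b to PBS lay above 1 in 1 class and below 1 in another, with counting intervals that exclude 1. With 1 library per treatment, none of these differences was tested. Cd274 had a ratio of 1.68 in macrophages and 0.690 in DCs. Pdcd1lg2 had 2.80 in macrophages and 0.335 in neutrophils, but the macrophage value rests largely on 1 cell and was 0.749 as a mean of per-cell CPM and 0.814 after thinning. Cd80 had 1.37 in macrophages and 0.567 in DCs. The Cd80 ratio in macrophages was 0.509 after thinning. Cd86 had 1.41 in B cells and 0.583 in DCs. Vsir had 1.12 in neutrophils and 0.860 in monocytes, and the neutrophil value was 0.687 among cells with at most 1 marker of any other class. For Cd274, the values among such cells were 0.236 in macrophages and 7.55 in DCs, and for Cd86 2.36 in DCs.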

How the results depend on the processing

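No paired analysis was possible because each treatment had 1 library, and for the same reason no library could be left out. Of 73 alternative values of the Cd274 ratios, 54 lay within the counting interval of the reported ratio and 19 outside it. For the other ligands and the percentages of genes called, 411 alternative values stayed close, 85 moved, and 3 turned the direction of a ratio past 2-fold. Counting every ratio, however near 1, 10 of the 73 Cd274 values and 39 of the 475 values of the other ligands were not on the same side of 1 as the reported ratio. The cause of these shifts was not tested.

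With the ranked-UMI cut-off alone, the Cd274 ratio was 1.02 in neutrophils, 0.482 in DCs and 1.39 in B cells. Without removal of doublets it was 1.48 in macrophages and 0.884 in monocytes. Among cells with at most 1 marker of any other class it was 1.08 in neutrophils, 0.236 in macrophages, 7.55 in DCs and 0 in epithelial cells, with 28 and 7 macrophages, 4 and 3 DCs and 3 and 1 epithelial cells left. Thinned to 1000 UMIs, it was 0.858 in neutrophils, 1.48 in macrophages, 0.905 in B cells and 0 in epithelial cells. As a mean of per-cell CPM it was 0.867 in neutrophils, 0.937 in DCs, 0.905 in B cells and 0.114 in epithelial cells. Scaled by the median of ratios it was 0.690 in neutrophils, and without immature neutrophils, an alternative chosen after seeing the data, 0.886. The ratio of Pdcd1lg2 in macrophages turned to 0.814 after thinning and to 0.749 as a mean of per-cell CPM, and that of Nectin2 in B cells, from 5 UMIs in all, to 1.46 as a mean of per-cell CPM.

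All 13 alternatives kept Pdcd1lg2 and Cd80 below 1 and Lgals9 above 1 in neutrophils. The percentage of genes called moved with the UMI minimum, in neutrophils to 2.90% higher and 4.52% lower with at least 50 UMIs and to 13.2% and 17.1% with at least 1.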

Other observations

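Cells outside the 6 classes also held the ligands. Plasma cells (43 in PBS and 144 in cmExoaCD11b) had 198 CPM (171 to 228) and 287 CPM (270 to 306) of Cd274, a ratio of 1.45 (1.24 to 1.71). Their Lgals9 level was 5.24 and 20.8 CPM, from 5 and 71 UMIs (ratio 3.98, 1.63 to 12.6). Cells that met no gate (731 and 673) had 444 and 338 CPM of Cd274 (0.762, 0.709 to 0.820) and 75.3 and 27.0 CPM of Pdcd1lg2 (0.359, 0.286 to 0.448). In them Cd86 was level, at 288 and 287 CPM (0.994, 0.914 to 1.08).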
